A study of Mus musculus with 2 samples.

Results

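The netrin guidance system was represented by 9 genes of the 33696 in the deposited matrices: the ligands Ntn1 and Ntn4, the netrin-binding protein Draxin, the receptors Dcc and Neo1, and the receptors Unc5a, Unc5b, Unc5c and Unc5d. They were chosen by symbol, with earlier results of these data known, and all 9 were found. Their UMIs (unique molecular identifiers, each counting 1 captured RNA molecule) were summed within classes of nuclei that were named from marker genes, with the 9 genes themselves left out of the clustering. Levels are given in CPM, a gene's UMIs scaled to a total of 1000000 UMIs in each class and library. They compare classes or libraries for the same gene and are not corrected for gene length.

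The data are single-nucleus RNA-seq of the hippocampus of mice at postnatal day 19, with 1 library for each of 2 genotypes. The control mice were Cicflox/flox, with both copies of Cic flanked by loxP sites. Cic codes for Capicua, a repressor of transcription. The library labelled knockout came from littermates that were Emx1-Cre; Cicflox/flox, and thus carried the same conditional allele together with a Cre recombinase driven by Emx1, a gene of the dorsal telencephalic lineage that gives rise to the excitatory neurons and much of the glia of the hippocampus. Tissue of 3 mice of a genotype (2 males and 1 female, 1 hippocampus a mouse) was pooled into its library, so every difference is between 2 pools and has no replicate check. Intervals are at the 95% level, cover counting error only, and do not cover variation between mice or preparations. No p-value is given.

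Netrins are secreted proteins that attract or repel growing axons, depending on the receptors that the axon carries. Dcc is the classical receptor for attraction, and its relative Neo1 (neogenin) binds netrins and repulsive guidance molecules. Unc5 receptors mediate repulsion, alone or in a complex with Dcc. Dentate granule cells are the excitatory neurons of the dentate gyrus. They are born from local progenitors well into postnatal life, and their axons, the mossy fibers, run to the CA3 pyramidal cells, which is the connection named in the title of the study.

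The comparisons used 21837 control nuclei (median 9783 UMIs) and 20529 nuclei from the library labelled knockout (median 8765 UMIs), after 12.9% and 10.9% of filtered nuclei, in that order, had been called doublets and left out. The libraries shared 175 barcodes, 0.675% of those in the control. Cic RNA was not reduced under the knockout label. Dentate granule-like nuclei held 532 Cic UMIs in the control and 540 in the other library, which is 9.16 and 12.9 CPM. CA3-like nuclei had 6.94 and 11.7, and in inhibitory-like nuclei 9.88 and 9.65 CPM. Which part of the transcript the deletion removes is not given in the sources used here, so 3′ counts of Cic do not check the genotype, and the label is used as given.

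Of the members past 2-fold in mature granule nuclei, described next, Unc5c was the one with an entry used here among the RefSeq promoters (GRCm38.p6). Entries on the chromosome that holds Dcc were left out for the members, so Dcc was not searched. The 250 bases before its start, on the plus strand of chromosome 3, are shown because Capicua is known to bind an octamer in the promoters of its targets.
Unc5c, chr3:141465314-141465563: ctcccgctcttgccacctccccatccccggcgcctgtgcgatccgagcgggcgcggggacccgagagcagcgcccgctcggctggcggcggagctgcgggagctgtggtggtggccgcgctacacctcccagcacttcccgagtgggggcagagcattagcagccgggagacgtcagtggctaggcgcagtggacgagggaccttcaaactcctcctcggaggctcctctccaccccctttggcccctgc
The spellings of that octamer TGAATGAA, TCAATGAA, TGAATGGA and TCAATGGA, were searched on both strands. None of them occurred in the windows (250 bases before to 50 after the start) of the 6 members with an entry used, Unc5a, Unc5b, Unc5c, Neo1, Ntn4 and Draxin. Over all 32851 promoters of the same length, 1260 (3.84%) held at least 1 of them. The search says only that these letters are not in these 6 windows.

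Dcc and Unc5d were higher and Unc5c was lower under the knockout label in dentate granule-like nuclei, each by more than 2-fold. The size rule used throughout asks for a 2-fold difference and, in the library with more, a minimum of 50 UMIs and of 10 CPM. Of the 9 members, 5 had this minimum in these nuclei, 2 were past the rule as higher and 1 as lower, where 3.12% of the 8451 genes with the minimum were past it (2.08% higher and 1.04% lower). The members and the rule were chosen with earlier results of these data known. The contrast with all genes therefore describes these members and cannot test them as a set. The class held 4785 control nuclei and 3832 nuclei of the other library.

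Dcc (ENSMUSG00000060534) is the receptor for attraction. Control nuclei held 75045 Dcc UMIs, and nuclei of the library labelled knockout 166158. These sums were 1292 and 3956 CPM, a log2 ratio of 1.61 (1.60 to 1.63), and Dcc ranked 68th from the highest ratio among the 8451 genes. The nuclei assigned to the female mouse gave 1370 and 3760 CPM, and those assigned to the 2 male mice 1198 and 4058. The log2 ratio was thus 1.46 in female and 1.76 in male nuclei. The sexes are nuclei of the same pools and are not replicates.

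Unc5d (ENSMUSG00000063626) had 8378 and 17174 UMIs, or 144 and 409 CPM, a log2 ratio of 1.50 (1.47 to 1.54). Female nuclei gave 138 and 385 and male nuclei 144 and 424 CPM. Here too the sexes come from the same pools and do not replicate the difference. Unc5c (ENSMUSG00000059921) lay the other way, from 22883 to 6720 UMIs, or 394 to 160 CPM, a log2 ratio of −1.30 (−1.34 to −1.26). Its levels were 394 and 153 CPM in female nuclei and 392 and 166 in male nuclei. Unc5c ranked 44th from the lowest ratio and Unc5d 79th from the highest.

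The remaining receptors differed less in the same nuclei. Neo1 had 153 and 198 CPM, a log2 ratio of 0.37 (0.33 to 0.41), and Unc5a 77.3 and 74.5, a log2 ratio of −0.05 (−0.12 to 0.01). Unc5b, Ntn1, Ntn4 and Draxin had at most 0.738 CPM in either library (31 Draxin UMIs), and a 2-fold difference in those 4 genes could not be read at this depth.

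**Figure D1:**
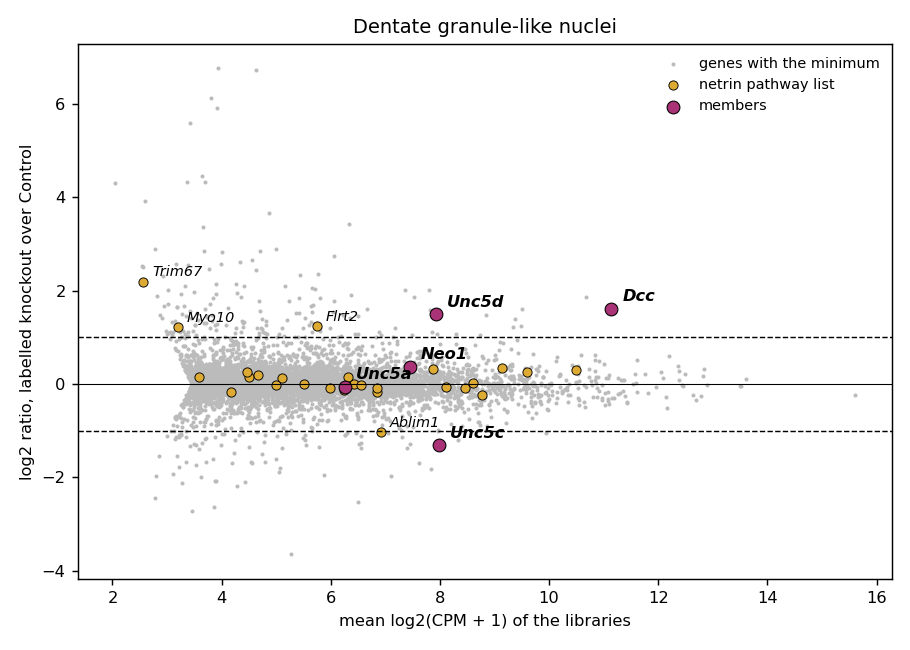
Each grey point is a gene with the size-rule minimum in dentate granule-like nuclei, at its mean log2(CPM + 1) over the libraries and its log2 ratio, with dashed lines at 2-fold. Dcc (1.61) and Unc5d (1.50) lie above the upper line and Unc5c (−1.30) below the lower one, while Neo1 (0.37) and Unc5a (−0.05) lie between them.

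Summed counts do not show whether a few nuclei or most nuclei carry a difference, so each nucleus was thinned to 2000 UMIs and the shallower nuclei were left out (4 of the control and 7 of the other library). At that equal depth 23.7% of control granule nuclei had no Dcc UMI, against 0.418% in the library labelled knockout. The median nucleus had 2 Dcc UMIs in the control and 7 under the knockout label, and the 10th percentile was 0 and 3 UMIs. Most nuclei therefore lay higher, rather than a small set. Unc5d was without a UMI in 82.6% and 59.7% of thinned nuclei, and Unc5c in 58.9% and 78.4%, in the same order of libraries.

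Before thinning, a Dcc UMI was present in 95.5% and 100% of granule nuclei, an Unc5d UMI in 39.9% and 70.3%, and an Unc5c UMI in 74.5% and 53.3%. The unnamed cluster that carried the microglia markers, which should lack these receptors, had Dcc in 12.7% and 15.5% of its nuclei, Unc5d in 4.11% and 3.39%, and Unc5c in 8.14% and 6.11%. All 3 shares in granule nuclei were above this background in each library, although the granule nuclei were deeper, with a median of 11623 UMIs in the control against 2130 in that cluster.

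**Figure D2:**
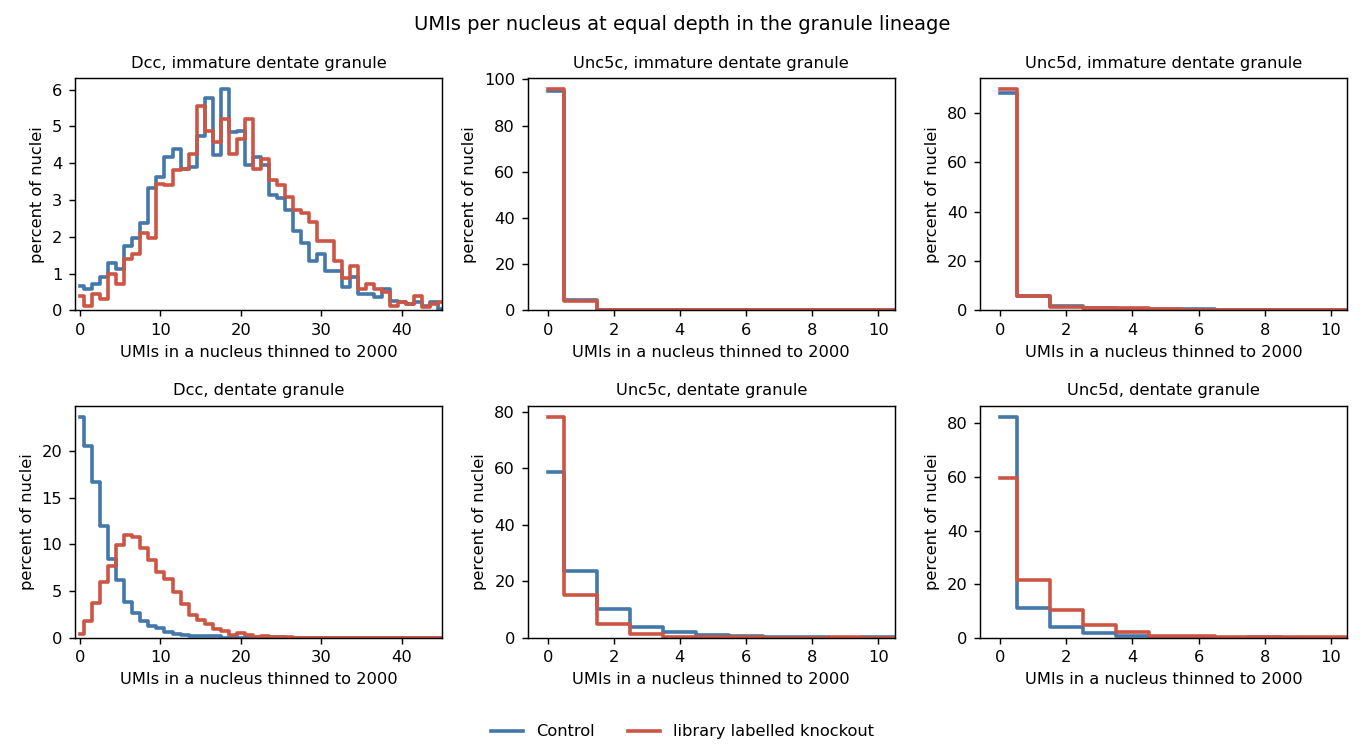
Percent of nuclei (y axis) at each number of UMIs (x axis) after thinning to 2000 UMIs, in immature (top) and mature (bottom) dentate granule-like nuclei, with a line for each library. In mature nuclei the Dcc curve has its median at 2 UMIs for control and at 7 UMIs for labelled knockout nuclei, while in immature nuclei the medians are 18 and 19.

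Mature granule nuclei fell into 3 clusters that the libraries filled unequally, and the 3 genes differed in how far their ratio held inside a cluster. Cluster 0, led by Gm42864 and Spink13, held 699 control nuclei and 3196 of the other library. Cluster 2, led by Trpc6 and Or13a18, held 3619 and 71, and cluster 14, led by Tex15 and Glra2, held 467 and 565. Cluster 14 raised 4 of the 7 granule markers. Its mean log2 fold of that list was 0.62, near the minimum of 0.5 for a name, against 1.57 and 1.99 in clusters 0 and 2. At Leiden resolution 2, a cluster of 360 and 237 nuclei with Ttc6 and Glra2 leading stayed unnamed. The immature granule list was its best match. Dcc went from 1793 to 3862 CPM in cluster 0, from 1016 to 2959 in cluster 2 and from 3076 to 4776 in cluster 14. It was higher in the library labelled knockout in each of the 3, by log2 ratios of 1.11, 1.54 and 0.63.

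Unc5d was also higher within each cluster, from 79.3 to 451, from 168 to 556 and from 23.0 to 84.2 CPM, and its within-cluster log2 ratios of 2.51, 1.73 and 1.87 all exceeded that of the pooled class. Unc5c was lower within each cluster, from 228 to 166, from 450 to 280 and from 126 to 98.0 CPM. Its within-cluster log2 ratios were only −0.46, −0.68 and −0.36, so none of the 3 clusters reached 2-fold. With the clusters weighted equally the mean log2 ratio was 1.09 for Dcc, 2.03 for Unc5d and −0.50 for Unc5c. The clusters were drawn from genes that themselves differ between the libraries. When the genes past the size rule were left out of the clustering, mature granule nuclei formed a single cluster of 4647 control nuclei and 3712 of the other library. Its log2 ratios were 1.68, 1.50 and −1.31 in the same order of genes. These are again ratios of a pooled class, so they do not address the smaller ratios within clusters.

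**Figure D3:**
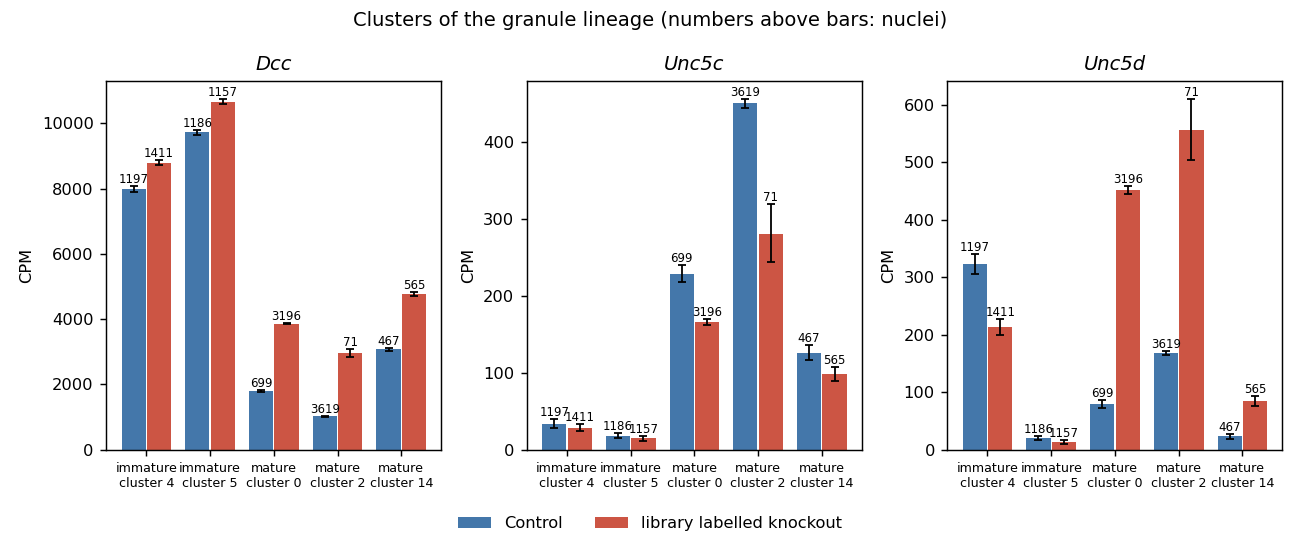
CPM (y axis) of Dcc, Unc5c and Unc5d in the 2 immature and 3 mature clusters of the granule lineage, with a bar for each library, exact Poisson 95% intervals as error bars and the number of nuclei above each bar. Dcc and Unc5d bars of the library labelled knockout are taller in clusters 0, 2 and 14, whereas Unc5c bars are shorter there. Of the mature clusters, cluster 14 had granule marker levels near the minimum for a name.

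The immature dentate granule-like nuclei numbered 2383 in the control and 2568 in the other library. Dcc reached its highest level of all classes here, at 9046 and 9807 CPM, a log2 ratio of 0.12 (0.10 to 0.13). Unc5c was at 24.1 and 20.7 CPM, its lowest level in either library, with a log2 ratio of −0.21 (−0.49 to 0.06). Unc5d had 138 and 105 CPM, a log2 ratio of −0.39 (−0.51 to −0.28), which is the opposite direction to that in mature nuclei. It came mostly from immature cluster 4 (led by L3mbtl4 and Calb2), at 322 and 212 CPM, and little from cluster 5 (led by Pappa2), at 19.3 and 13.4. Dcc was high in both, at 7981 and 8794 CPM in cluster 4 and 9730 and 10667 in cluster 5. None of the 6 members with the minimum was past the size rule, where 0.281% of genes were.

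The mature class below is the whole dentate granule-like class, with cluster 14 included. Both classes come from mice of 1 age, so a change over time was not observed. Set against the immature class of the same library, mature nuclei had 7.0-fold less Dcc in the control and 2.48-fold less in the library labelled knockout. Unc5c was 16.3-fold higher in mature than in immature nuclei of the control and 7.69-fold higher in the other library. Unc5d was nearly level between the stages in the control, at 1.05-fold, and 3.90-fold higher in mature nuclei of the library labelled knockout. Neo1 was lower in mature nuclei by 4.31-fold and 3.20-fold, Unc5a higher by 2.22-fold and 2.49-fold, and Draxin lower by 60.7-fold and 48.1-fold. Among these 6 genes the fold between the immature and mature classes differed most between the libraries for Unc5d, then Dcc and Unc5c, and least for Unc5a.

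Markers of other stages and cell types moved with these differences, and their part in the result was not tested. The 7 markers of immature granule cells summed to 152 CPM in mature control nuclei and to 256 in the library labelled knockout, with 1 of the 7 (Nnat) past the size rule and none at 0. The same markers summed to 2892 and 2980 in the immature class. The 7 markers of mature granule cells summed to 972 and 674 CPM, with 1 of 7 (Trpc6) lower by the size rule and none at 0. The Cajal-Retzius list summed to 8.81 and 46.8 CPM, with 1 of its 8 genes (Reln) higher and none at 0, and the hilar mossy cell list to 76.5 and 37.6, with 1 of 7 (Necab1) lower and none at 0.

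Pyramidal neurons of CA3, the targets of the mossy fibers, carried Dcc and Unc5c together. The Dcc level was 3154 CPM in control nuclei against 3935 under the knockout label, with a log2 ratio of 0.32 (0.31 to 0.33). Unc5c had 1963 and 1748, a log2 ratio of −0.17 (−0.19 to −0.15), and Unc5d 274 and 288, a log2 ratio of 0.07 (0.03 to 0.12). The class joins unlike clusters for Unc5c and Unc5d. Unc5c went from 2142 to 1978 CPM in cluster 8, a log2 ratio of −0.12 (−0.13 to −0.10). In cluster 21 it went from 1213 to 892, a log2 ratio of −0.44 (−0.50 to −0.39). For Unc5d, cluster 21 held 6259 and 5403 of the UMIs, at 1095 and 1048 CPM, a log2 ratio of −0.06 (−0.12 to −0.01). Cluster 8 held 1825 and 1596, at 76.6 and 83.3 CPM, a log2 ratio of 0.12 (0.02 to 0.22). Neo1 had 126 and 174, a log2 ratio of 0.47 (0.40 to 0.53). None of the 5 members with the minimum in CA3-like nuclei was past the size rule, where 1.61% of genes were. Immature granule markers summed to 295 and 373 CPM in these nuclei with none past the rule, and Cajal-Retzius markers to 11.7 and 26.6 with Reln past it. No gene of either list was at 0 in either library, and their part in the Dcc difference was not tested. CA2-like nuclei, only 144 and 122, had 1299 and 2110 CPM of Dcc, a log2 ratio of 0.70 (0.64 to 0.76), and 1378 and 1334 of Unc5c. Immature granule markers, from the class with the highest Dcc, summed to 71.3 and 141 CPM in CA2-like nuclei, with 1 of the 7 at 0 in each library and Dcx and Sema3c past the size rule as higher, and their part in the Dcc difference was not tested. None of the 5 members with the minimum there was past the rule, against 3.47% of genes.

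CA1-like nuclei also had no member past the rule among 6 with the minimum, where 3.15% of genes were past it, but this class joined clusters of very different receptor content. Dcc was at 1579 and 1902 CPM in the class and Unc5d at 419 and 498. Cluster 9 held 310 control nuclei and 1293 of the other library, and cluster 11 held 1290 and 28. Unc5d came almost wholly from cluster 16 (led by Npsr1), cluster 24 (led by Cpa6) and cluster 30 (led by Rxfp1), with 1492, 1070 and 2614 CPM in the control, against 4.17 in cluster 9 and 5.52 in cluster 11. The 3 clusters that carry Unc5d had the lowest CA1 marker levels of the class. Each raised 3 of the 6 CA1 markers, without Fibcd1, and the mean log2 fold of the list over all other nuclei was 0.53, 0.68 and 0.65, near the minimum of 0.5 for a name, against 1.68 and 1.78 in clusters 9 and 11. The higher Unc5d level of the class under the knockout label was found in none of these 3: cluster 16 went from 1492 to 1311 CPM, a log2 ratio of −0.19 (−0.23 to −0.14), and cluster 24 from 1070 to 1072. Clusters 24 and 30 held 177 and 90 control nuclei, and 348 and 145 of the other library. Within cluster 16 Dcc had 80.4 and 260 CPM, a log2 ratio of 1.69, and Unc5c 268 and 125, a log2 ratio of −1.10. Cluster 24 had the most Dcc, at 5425 and 5539 CPM, with no such difference. In cluster 30 Unc5d was lower, at 2614 and 1146 CPM, a log2 ratio of −1.19. These 3 clusters were picked out after their values were seen. Other markers also differed in CA1-like nuclei, with Cajal-Retzius markers summing to 13.1 and 34.5 CPM (Reln past the rule) and immature granule markers to 153 and 244 (Dcx past it), none at 0 in either library, and their part in the results of this class was not tested.

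The inhibitory-like nuclei, neurons that arise outside the Emx1 lineage, differed little in all 7 members with the minimum. Unc5d was at its highest here, at 1823 and 1746 CPM, a log2 ratio of −0.06 (−0.08 to −0.04). Unc5c had 1722 and 1743, a log2 ratio of 0.02 (0.00 to 0.04), and Dcc 929 and 1010, a log2 ratio of 0.12 (0.09 to 0.15). The Unc5c value of the class was found in none of its clusters. Its log2 ratios were −0.04, −0.14, −0.03 and −0.52 in clusters 12, 15, 27 and 39, with those of clusters 12 and 39 within counting error. None of the 7 was past the rule, where 0.102% of genes were. Cluster 27 (led by Mctp2) had the highest Unc5c level of the 4 inhibitory-like clusters, at 6609 and 6454 CPM, and its low Dcc went from 85.6 to 191, a log2 ratio of 1.15 on 230 and 500 UMIs. Cluster 39 (led by Sp8, with 26 and 21 nuclei) went the other way for Dcc, from 2738 to 1064 CPM, a log2 ratio of −1.35 (−1.86 to −0.89) on 149 and 49 UMIs.

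**Figure D4:**
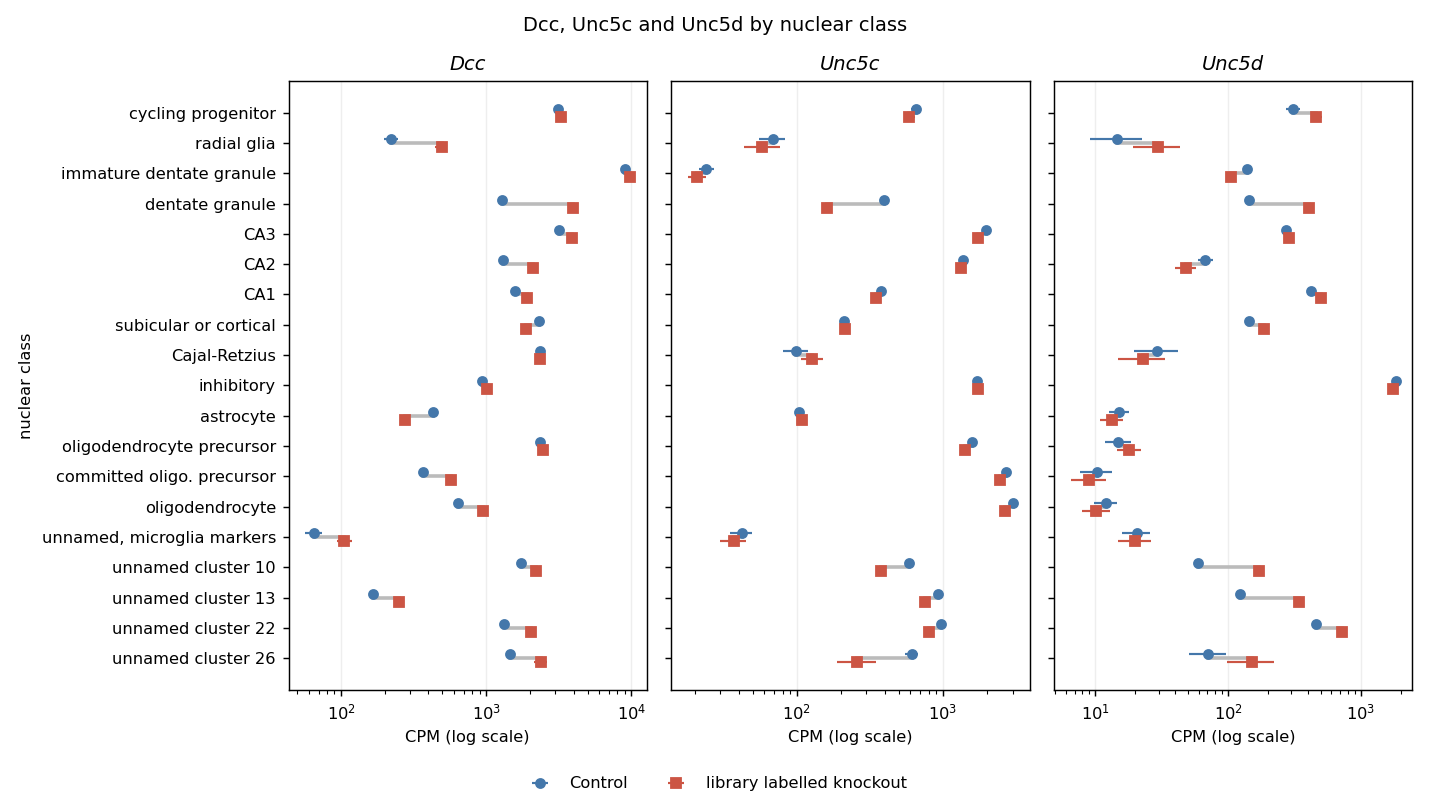
CPM on a log axis for Dcc, Unc5c and Unc5d in the 19 classes compared, with circles for the control, squares for the library labelled knockout and bars for exact Poisson 95% intervals. In dentate granule nuclei Dcc goes from 1292 to 3956, Unc5c from 394 to 160 and Unc5d from 144 to 409, and in radial glia Dcc goes from 222 to 492.

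Across the 19 classes, each with at least 100 nuclei in each library, Dcc levels in the control ran from 64.8 CPM in the microglia-marker cluster to 9046 in immature granule nuclei. Dcc was higher in the library labelled knockout in 16 of the 19 classes and lower in 3, the astrocyte-like, subicular or cortical excitatory-like and Cajal-Retzius-like nuclei. The last of these did not differ beyond counting error, with 2354 and 2334 CPM. The count depends on the scaling: as UMIs per nucleus Dcc was higher in 12 classes and lower in 7, with the immature granule-like (−0.19), inhibitory-like (−0.11), oligodendrocyte precursor-like (−0.12) and cycling progenitor-like (−0.24) log2 ratios turning below 0. In CPM, higher was the more common direction over all genes in each class but the oligodendrocyte-like. Of genes with at least 20 UMIs, 11519 of 17693 were higher in CA1-like, 9514 of 15395 in immature granule-like and 4971 of 13262 in oligodendrocyte-like nuclei. The cycling progenitor-like class joined clusters of opposite sign, with Dcc log2 ratios of −0.16 in cluster 29 and 0.42 in cluster 34. In the microglia-marker cluster, whose Dcc UMIs serve as a background of free RNA, Dcc had 64.8 and 105 CPM, a log2 ratio of 0.70 (0.44 to 0.96). With the UMIs per nucleus of that cluster subtracted, the log2 ratio of Dcc was 1.60 in mature granule nuclei and 1.17 in radial glia-like nuclei. Among control levels near each other, oligodendrocyte precursor-like (2359) and Cajal-Retzius-like (2354) nuclei did not differ beyond counting error, and cycling progenitor-like (3146) and CA3-like (3154) nuclei did not either.

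Radial glia-like nuclei, which resemble the stem cells of the dentate gyrus, were the other named class with Dcc past the size rule. They had 318 UMIs in 413 control nuclei and 432 UMIs in 286 nuclei of the other library, or 222 and 492 CPM, a log2 ratio of 1.15 (0.94 to 1.36). The share of nuclei with a Dcc UMI was 29.5% and 28.3%, and 21.8% of 358 and 27.2% of 224 nuclei with each thinned to 2000 UMIs. The log2 ratio was 1.17 in female and 0.80 in male nuclei, 0.97 as UMIs per nucleus and 0.27 with doublets kept, so the call did not hold in those last 3 settings. Markers of immature granule cells summed to 329 and 643 CPM in these nuclei, with none of the 7 at 0 in either library and 1 of them, Nnat, past the size rule as higher. Intermediate progenitor markers summed to 50.9 and 87.8 CPM, with 2 and 1 of the 6 at 0. The part of these markers in the Dcc result was not tested. Of 4 members with the minimum in this class 1 was past the rule, where 0.937% of genes were. In astrocyte-like nuclei Dcc was lower, at 429 and 278 CPM, a log2 ratio of −0.63 (−0.70 to −0.55), and 0.233% of genes were past the rule there with no member among them.

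Unc5c followed another order. Its highest control levels were in oligodendrocyte-like (3000 CPM), committed oligodendrocyte precursor-like (2711), CA3-like (1963) and inhibitory-like (1722) nuclei, and its lowest in immature granule-like nuclei (24.1). In the library labelled knockout these 5 levels were 2648, 2467, 1748, 1743 and 20.7. Unc5c was lower in the library labelled knockout in 15 of the 19 classes, and in 18 as UMIs per nucleus. The share of all genes lower in as many classes was not counted. Inhibitory-like nuclei were not among the 15, although the Unc5c log2 ratio was below 0 within each of their clusters. Only the mature granule nuclei and unnamed cluster 26 were past 2-fold.

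Unc5d had at most 20.5 CPM in either library in astrocyte-like, oligodendrocyte precursor-like, committed precursor-like, oligodendrocyte-like and microglia-marker nuclei. Radial glia-like nuclei, under the minimum of UMIs, had 14.6 and 29.6 on 21 and 26 UMIs, a log2 ratio of 1.01 (0.13 to 1.92). Cycling progenitor-like nuclei had 308 and 462 CPM, a log2 ratio of 0.59 (0.36 to 0.81), but this class joins a pair of unlike clusters. Cluster 29 (120 and 132 nuclei) had 572 and 866 CPM of Unc5d, and cluster 34 (63 and 72 nuclei) had 15.7 and 56.6 on 7 and 24 UMIs. Immature granule markers summed to 830 and 1206 CPM in the cycling class, with none at 0 or past the size rule. Their part in its Unc5d difference was not tested. Besides granule nuclei, 2 unnamed clusters were past the size rule for Unc5d. The alternative settings were run for named classes only, so these calls were not checked in that way. Cluster 10, led by Gm10754, Gm29771 and Pde11a, had 59.6 and 172 CPM, a log2 ratio of 1.53 (1.42 to 1.64), and cluster 13, with Fn1 among its leading genes, had 122 and 341, a log2 ratio of 1.48 (1.40 to 1.56). Each of these clusters had 1 member past the rule of 5 with the minimum, where 3.06% and 2.96% of genes were past it. At Leiden resolution 2, leading genes of cluster 10 were split between clusters that the libraries filled unequally. The cluster led by Dcn and C1qtnf7 held 392 control nuclei and 496 of the other library, and that led by Gm29771 and Gm10754 held 470 and 289.

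The other Unc5 receptors were sparser. Unc5a was highest in granule nuclei, with control levels of 77.3 CPM in mature granule nuclei, 70.4 in unnamed cluster 22, 65.4 in Cajal-Retzius-like nuclei and 64.8 in unnamed cluster 10, and it passed the rule in none of the 12 classes with the minimum. Among the classes compared, Unc5b was highest in Cajal-Retzius-like nuclei, at 81.4 and 79.2 CPM on 81 and 87 UMIs, and in oligodendrocyte-like nuclei, at 56.1 and 45.6, a log2 ratio of −0.30 (−0.51 to −0.09). It was past the rule in unnamed cluster 22, led by Gm12130, with 10.1 and 4.98 CPM on 62 and 30 UMIs, a log2 ratio of −1.01 (−1.70 to −0.37), so that it met the minimum of 10 CPM only in the control and only just. It was 1 of 6 members with the minimum there, where 3.73% of genes were past the rule. At the margin of the rule, Ntn4 in CA1-like nuclei lay just inside 2-fold, at 6.43 and 12.3 CPM, a log2 ratio of 0.94 (0.72 to 1.16). Its UMIs lay almost wholly in clusters 16, 24 and 30, where the log2 ratios were 0.43, 2.00 and 0.01, with the unequal nuclei given above.

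Neo1 had the minimum in all 19 classes, with control levels between 58.4 CPM in the microglia-marker cluster and 659 in immature granule-like nuclei. It was past the rule only in unnamed cluster 26, on 64 and 54 UMIs, a log2 ratio of 1.56 (1.01 to 2.11). That cluster had a median of 1189 UMIs per control nucleus. There 14.2% of genes were past the rule, and 2 of the 3 members with the minimum were, Neo1 as higher and Unc5c as lower.

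The 19 classes leave out endothelial-like, mural-like, ependymal-like and other nuclei with fewer than 100 in a library. Among these classes, Ntn1 and Ntn4 each had their highest class level in progenitors or glia. Ntn1, the canonical secreted netrin, was highest in oligodendrocyte precursor-like nuclei, at 189 and 192 CPM, a log2 ratio of 0.02 (−0.11 to 0.15), followed by cycling progenitor-like nuclei, at 112 and 113. Within the latter, Ntn1 lay mainly in cluster 34, at 186 and 205 CPM, against 44.6 and 21.1 in cluster 29. Markers of oligodendrocyte precursors summed to 5753 and 6038 CPM in the cycling class, with none of the 6 at 0, and their part in its Ntn1 level was not tested. Committed oligodendrocyte precursor-like nuclei had 22.3 and 33.0, a log2 ratio of 0.56 (0.21 to 0.92). Most of these UMIs, 113 and 155, lay in cluster 20, where the log2 ratio was 0.42 (0.06 to 0.78). Cluster 20 held 293 and 348 nuclei, and cluster 19 of the same class held 352 and 297. Oligodendrocyte-like nuclei had 0.856 and 1.04, where 7 UMIs were counted in each library. Ntn4, a netrin that binds laminins of basement membranes, was highest of these in radial glia-like nuclei, at 41.8 and 38.8 CPM on 60 and 34 UMIs, followed in the control by astrocyte-like (19.8), cycling progenitor-like (19.2) and oligodendrocyte precursor-like (18.7) nuclei. These last 3 did not differ from each other beyond counting error. Single clusters under the knockout label reached more, with 49.3 CPM in cluster 29 of the cycling class and 45.3 in CA1-like cluster 16.

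Draxin, a secreted protein that binds netrin and Dcc, was found mainly in cycling progenitor-like and immature granule-like nuclei. Cycling progenitor-like nuclei had 77.8 and 51.8 CPM on 73 and 44 UMIs, a log2 ratio of −0.58 (−1.16 to −0.03). Cluster 29 held 72 and 43 of these UMIs, at 146 and 101 CPM, where the log2 ratio of −0.53 (−1.11 to 0.03) was within counting error. Immature granule-like nuclei had 35.0 and 36.0, a log2 ratio of 0.04 (−0.17 to 0.26). No ligand passed the size rule in any class. The microglia-marker cluster had no member past it of 4 with the minimum, where 0.271% of genes were. In cycling progenitor-like, oligodendrocyte precursor-like, committed precursor-like, oligodendrocyte-like, subicular or cortical excitatory-like and Cajal-Retzius-like nuclei no member was past the rule, where 0.533%, 0.233%, 1.05%, 3.82%, 1.12% and 1.59% of genes were, in that order.

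**Figure D5:**
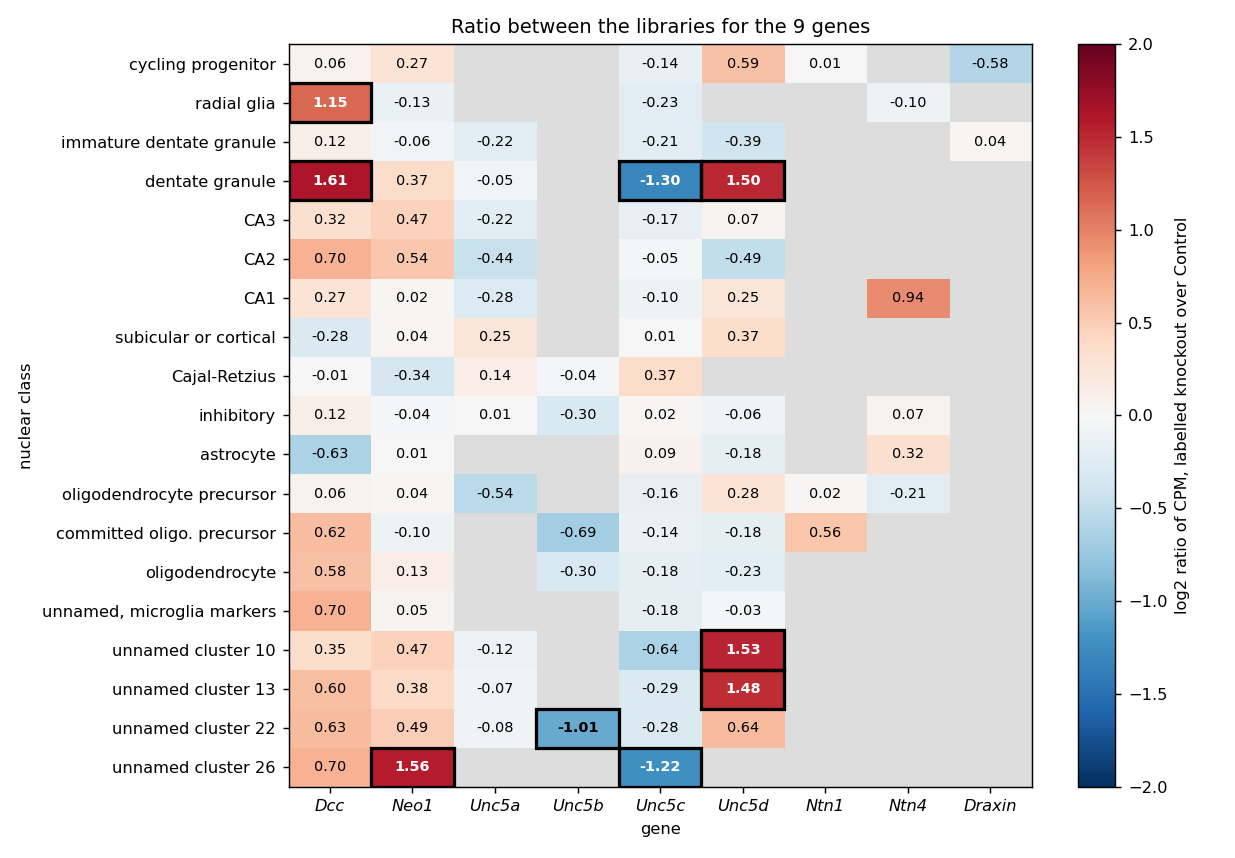
Log2 ratios of the 9 genes (columns) in the 19 classes (rows), red where higher and blue where lower in the library labelled knockout, with black frames around the values past the size rule and grey where a gene had less than 50 UMIs or 10 CPM. Of the 100 values with the minimum, 9 are framed, 6 of them higher and 3 lower, and 4 of the 9 are in named classes (Dcc, Unc5c and Unc5d in dentate granule and Dcc in radial glia). Over all genes with the minimum, 3.12% were past the rule in dentate granule and 0.937% in radial glia. The shares were 3.06%, 2.96% and 3.73% in unnamed clusters 10, 13 and 22. In unnamed cluster 26, with framed values of Neo1 and Unc5c, 14.2% were past it.

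A list of 34 further genes of netrin signalling gave the surroundings of these receptors. In mature granule nuclei 27 had the minimum, 3 were past the size rule as higher and 1 as lower, against the 3.12% of all genes given above. The list's median log2 ratio over the 34 genes with at least 20 UMIs was 0.01, beside 0.03 over all genes. Flrt2, a ligand of Unc5 receptors, had 34.3 and 80.9 CPM, a log2 ratio of 1.24 (1.16 to 1.32). Myo10, a motor protein that carries Dcc in filopodia, had 5.28 and 12.3, a log2 ratio of 1.22 (1.01 to 1.43). Trim67, a ubiquitin ligase that binds Dcc, had 2.19 and 10.02, a log2 ratio of 2.19 (1.91 to 2.49). Myo10 and Trim67 met the minimum of 10 CPM only in the library where they were higher, Trim67 only just, so their place among the 3 rests on the difference itself.

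Ablim1, an actin-binding protein linked to netrin signalling, was lower, at 172 and 84.1 CPM, a log2 ratio of −1.03 (−1.09 to −0.98), with −0.93, −0.67 and −0.33 within clusters 0, 2 and 14. These 4 genes were on the same side in female and in male nuclei of the same pools. The share of all genes for which this holds was not counted. None of the 11 adaptors and kinases, all with the minimum, was past the rule, and their log2 ratios ran from −0.24 to 0.33. The other netrin-binding receptors with the minimum, Dscam and Dscaml1, had log2 ratios of 0.31 and 0.25.

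In the immature granule-like, CA3-like, CA2-like and inhibitory-like nuclei no gene of the list was past the rule, and the list's median log2 ratio was 0.01, 0.08, 0.14 and −0.03, beside 0.07, 0.08, 0.11 and 0.05 over all genes. In CA1-like nuclei Ablim1 was past it as higher, at 52.8 and 112 CPM, and the medians were 0.09 for the list and 0.11 for all genes. Unnamed cluster 13 also had Ablim1 higher, at 23.9 and 97.2 CPM. In unnamed cluster 26 Fyn, a kinase that acts on Dcc, was higher at 142 and 308 CPM on 82 and 51 UMIs, a log2 ratio of 1.13 (0.59 to 1.64), with 2.25 in female and −0.42 in male nuclei. Oligodendrocyte-like nuclei had Nck2, a relative of the Dcc-binding adaptor Nck1, lower at 51.1 and 23.8, and subicular or cortical excitatory-like nuclei had Trim67 higher at 4.06 and 14.7. In these classes 3.82% and 1.12% of genes were past the rule, in that order. Trim67 again met the minimum of 10 CPM only in the library where it was higher, so its call rests on the difference itself.

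Profiles over the classes were compared by Pearson correlation of log2(CPM + 1) over 38 points, 19 classes in 2 libraries, as a description with no test, since the points share libraries and depth. Among 14675 genes the nearest to Dcc were Aff2 (r = 0.80), Ltbp4 (0.79) and Cacna1c (0.79), and to Unc5d Pam (0.88), Srrm4 (0.84) and Srrm4os (0.83). Unc5c was nearest to Rap1gap (0.79), Ss18l2 (0.79) and Gm28320 (0.78), and Unc5a to Celf5 (0.93). Unc5b was nearest to Mapk8ip1 (0.80), Ntn1 to Gm42948 (0.92), Ntn4 to Spry2 (0.85) and Draxin to Ilf2 (0.91). For Neo1 the nearest was Gm47271 (0.94), a gene that overlaps it on the opposite strand, so reads of the pair may not be fully separable. Among pairs of members the highest r was 0.54, between Unc5a and Unc5d, and Dcc and Unc5c had r = 0.06.

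Overlap with other counted genes touched the main results little. Dcc and Unc5d overlapped no other counted gene in the annotation used. Unc5c overlapped Gm15688 and Gm15689 on the opposite strand, which had 39 and 45 UMIs in control granule nuclei beside the 22883 of Unc5c.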

How the data were processed

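The deposited matrices give UMI counts (genes by nuclei, not normalized) for 1 library per genotype. The authors made these counts with Cell Ranger 8.0.1 against mm39, per the submitters' processing notes. Nuclei with at least 500 genes and at most 5% mitochondrial UMIs were kept, and doublets were called with Scrublet in scanpy 1.11.5 (expected rate 0.1) and left out. Both libraries were clustered together (3000 variable genes without the members and the pathway list, 30 components, 15 neighbours, Leiden resolution 1). A cluster was named "-like" where at least 3 markers of a list were raised, the list's mean log2 fold reached 0.5, and its leading genes held no more markers of another list. The unnamed cluster with microglia markers raised all of them but was shallow, with none among its 10 leading genes. UMIs were summed per library and class with at least 100 nuclei in each. Ratios add 0.5 UMI to each sum. Intervals are exact Poisson for levels and exact conditional binomial for ratios. Female nuclei had at least 2 Xist UMIs and no Y-linked UMI, and male nuclei the reverse with at least 1 Y-linked UMI.

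Members, lists and rules were chosen with earlier results of these data known. The text names all 9 members, Cic, pathway genes past the size rule and the genes nearest each member in profile. Overlaps between genes were read from an annotation of another build, used for no coordinates. The size rule was tested on simulated counts that held counting error only, with changes larger than 2-fold in genes above its minimum. That setting has no variation between mice or preparations, so it does not show how often the rule calls a difference between such pools. Alternatives changed the scaling, filters, clustering, sex, free RNA and minimum. The values of 1 subgroup of the pathway list are not reported here.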

Additional observations from a re-analysis of the deposited data

Results flagged for a closer look

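Ablim1 differed in opposite directions between classes of nuclei, and the difference between the classes was not tested. Its log2 ratio of the library labelled knockout over the control was 1.09 in CA1-like nuclei (2225 and 4195 UMIs) and −1.03 in dentate granule-like nuclei (9999 and 3533 UMIs). The log2 ratios were 1.23 in female and 0.90 in male CA1-like nuclei, and −0.98 in female and −1.06 in male granule-like nuclei. Clusters within these classes differed. In CA1-like nuclei the log2 ratio was 1.63 in cluster 9 (310 control nuclei and 1293 of the other library) and 2.63 in cluster 11 (1290 and 28), but −0.37, 0.08 and 0.54 in clusters 16, 24 and 30. In granule-like nuclei it was −0.93, −0.67 and −0.33 in clusters 0, 2 and 14, none past 2-fold. In CA1-like nuclei, summed Cajal-Retzius markers had a log2 ratio of 1.40, immature granule markers 0.67 and CA1 markers −0.25, and Reln, Dcx, Ntf3, Fn1, Hs3st4, Slc17a6 and Wfs1 were past the size rule. The part of these in the Ablim1 result was not tested. Ablim1 overlaps 4930449E18Rik on the opposite strand, which had 54 and 15 UMIs in granule-like nuclei. No member of the 9 was past 2-fold in opposite directions in named classes, but only Dcc was past the rule in more than 1 of them. Clusters within named classes did go opposite ways. Unc5d had log2 ratios of −1.19 in CA1-like cluster 30 and 2.51 in granule-like cluster 0. Dcc had −1.35 in inhibitory-like cluster 39 and 1.54 in granule-like cluster 2.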

How the results depend on the processing

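No paired analysis was possible because each group was 1 library. In dentate granule-like nuclei, Dcc, Unc5d and Unc5c were past 2-fold in the reported direction under all 11 alternatives of scaling, depth, clustering, sex and free RNA. Beyond counting error, the log2 ratio of Dcc (1.61) moved to 1.58 with median-of-ratios size factors, 1.47 as UMIs per nucleus, 1.56 with doublets kept, 1.59 at 2000 UMIs per nucleus, 1.68 when clustered without genes past the size rule, 1.70 at Leiden resolution 2, 1.46 in female nuclei, 1.76 in male nuclei and 1.60 with free RNA subtracted. That of Unc5c (−1.30) moved to −1.45 as UMIs per nucleus, −1.22 at 2000 UMIs, −1.36 in female and −1.24 in male nuclei, and −1.35 with free RNA subtracted. That of Unc5d (1.50) moved to 1.36 as UMIs per nucleus, 1.44 at 2000 UMIs and 1.56 in male nuclei. The mean within clusters, chosen after seeing the data, gave 1.09 for Dcc, 2.03 for Unc5d and −0.50 for Unc5c, which ended the 2-fold call of Unc5c. The causes were not tested.

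Under the alternatives run for the count of members (scaling, depth, clustering, sex, free RNA and the minimum; the mean within clusters was not among them), 3 were past the rule in granule-like nuclei, and none in immature granule-like, CA3-like, CA1-like and inhibitory-like nuclei, except 1 (Ntn4, log2 ratio 1.06) in female CA1-like nuclei. Calls in unnamed clusters had no alternative run. Over 77 log2 ratios of members in named classes, 885 alternative values were computed: 635 lay within the counting interval of the reported value, 250 outside it, and no called value changed sign. Of the 838 for values under 2-fold, 7 were past it and 102, from 44 ratios, had the other sign, 20 of them as UMIs per nucleus (among them Dcc in immature granule-like nuclei, 0.12 to −0.19, and Unc5d in CA3-like nuclei, 0.07 to −0.11). Median-of-ratios scaling moved CA1-like values by −0.10 and CA2-like values by −0.11 on the log2 scale. Depth limits the ligands and Unc5b in granule nuclei, and the sex split rests on 1 female and 2 male mice per library.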
